A study of Mus musculus with 8 samples.

Results

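The type I interferon response was followed through 39 genes in lumbar intervertebral discs of mice with proteoglycan-induced spondylitis, an autoimmune inflammation of the spine. The genes were the interferon receptor, the transcription factors that carry its signal, and known interferon-stimulated genes, and each was measured by the Affymetrix probe sets whose platform annotation names that gene alone. Of the 39 genes, 37 were measured, by 63 probe sets, among 18193 genes on the arrays. Isg15 shares its probe set with Gm9706 and was left out, and Ifi44 is not analysed here. The disease samples were 5 arrays from immunized female BALB/c mice, which had received cartilage proteoglycan on days 0, 21 and 42 (100 µg of protein per the labels, with 2 mg of dimethyldioctadecylammonium bromide as adjuvant). They were compared with 3 arrays from naive female BALB/c mice matched for age, which received no immunization. The naive group had no injection of adjuvant alone, so effects of the antigen and of the adjuvant cannot be told apart. Each array held RNA of 6 pooled discs (L1 to L6), and the descriptions of immunized replicate 1 and naive replicate 3 each join a pair of sample numbers.

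Type I interferons are cytokines made when cells sense nucleic acid of viruses or of damaged cells. They bind a receptor of the subunits IFNAR1 and IFNAR2, whose kinases JAK1 and TYK2 activate STAT proteins. STAT2 and IRF9 belong to a complex that binds the interferon-stimulated response element (ISRE) in the promoters of target genes, and IRF7 amplifies the interferon genes themselves. The products of the targets sense viral RNA, degrade it, block its translation or restrain virus release, and some dampen the signal. In inflamed tissue the level of these genes is used as a readout of interferon exposure, in resident and infiltrating cells alike.

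Interferon response genes were higher in discs of immunized mice. Of the 37 genes measured, 16 rose and 0 fell at an adjusted p under 0.05 in limma (Benjamini-Hochberg adjustment over all genes), while 23 were higher and 0 were lower by the unadjusted test at the same threshold. Over all genes, 4.46% rose and 4.68% fell by the same adjusted test, and 12.9% were higher and 18.2% lower by the unadjusted one. The 16 genes that rose were Oas1a, Ifit1, Trim30a, Oas2, Usp18, Eif2ak2, Oasl1, Herc6, Bst2, Parp14, Samd9l, Cmpk2, Ifih1, Mx1, Zbp1 and Parp9, by 0.41 (Parp9) to 1.56 (Oas1a) on the log2 scale. All 37 differences were positive, against 43.8% of all genes, and their median was 0.62, against -0.03 over all genes. In 17 members every immunized value exceeded every naive value, as in 9.39% of all genes. The values are bulk measurements, in which more cells of a type and more RNA per cell cannot be told apart.

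The number of calls rested on single samples. In limma 0 members passed without immunized replicate 1 (22 higher, unadjusted), 0 without naive replicate 2 (18 higher, unadjusted) and 1, Eif2ak2, without naive replicate 3 (20 higher, unadjusted). Over all genes the same fits passed 101 higher and 47 lower, 17 higher and 4 lower, and 121 higher and 55 lower, so the loss was not limited to the members. The member count was 17, 8, 10 and 9 without immunized replicates 2, 3, 4 and 5, and 8 without naive replicate 1. Over all genes those fits passed, in the same order, 1293, 414, 491, 236 and 254 higher. They passed 1710, 344, 377, 158 and 120 lower. Eif2ak2, Oas1a, Oas2, Usp18 and Parp14 each passed in 5 of the 8 fits that left out 1 sample. The direction was steadier than the calls. In all 17 alternatives that gave a difference per gene, 35 of the 37 differences stayed positive, Irf1 and Ifi35 being the exceptions. These alternatives reuse the same 8 arrays, and some could not change a sign. The trended, robust variance left each difference unchanged. Leaving out probe sets with an array below 4 (log2) removed none of the members' probe sets.

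**Figure D1:**
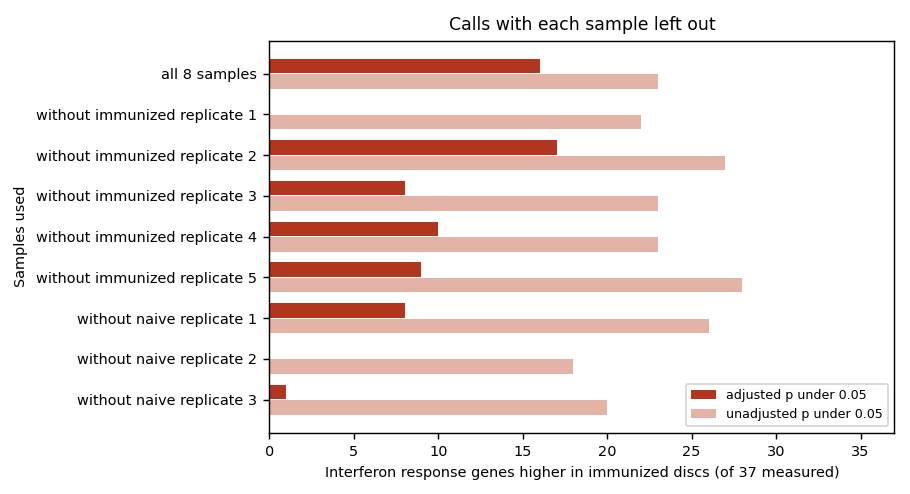
Number of interferon response genes higher in immunized discs (x axis, of 37 measured) with all 8 samples and with each sample left out (y axis). Dark bars count genes at an adjusted p under 0.05 and light bars those at an unadjusted p under 0.05. With an adjusted p the count lay between 0 and 17, and with an unadjusted p between 18 and 28.

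Among the naive samples, replicate 1 stood highest in most members, while no immunized sample was the highest or the lowest in most. The mean over the 37 members, in log2 units around each gene's 8-array median, was 0.34, -0.02, 0.29, 0.36 and -0.02 in immunized replicates 1 to 5, against -0.18, -0.57 and -0.55 in naive replicates 1 to 3. Naive replicate 1 was the highest naive sample in 34 members, against 41.0% of all genes. The exceptions were Eif2ak2, Herc6 and Stat2, in which naive replicate 1 was the lowest naive sample. Immunized replicate 2 was the lowest immunized sample in 18 members and immunized replicate 5 in 15, against 22.4% and 20.9% of all genes. Immunized replicate 4 was the highest in 17 members and immunized replicate 3 in 12, against 17.7% and 24.5% of all genes.

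**Figure D2:**
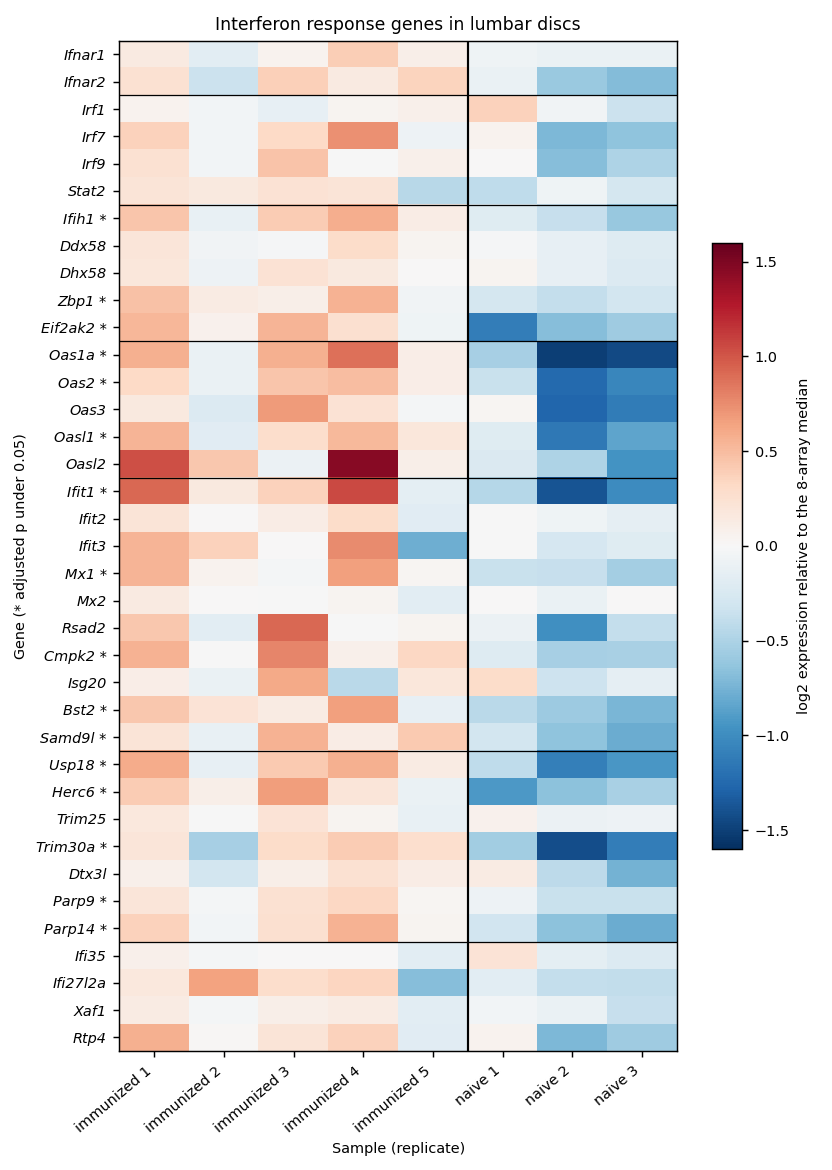
Expression of the 37 measured interferon response genes (rows, grouped by role between horizontal lines) in the 5 immunized (left) and 3 naive samples (right). Colour gives the log2 value centred on the gene's 8-array median, and an asterisk marks the 16 genes with an adjusted p under 0.05. Naive replicates 2 and 3 are low in most rows, while naive replicate 1 is nearer to immunized replicates 2 and 5.

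Promoters of members were read from RefSeq (GRCm38.p6) to show the element that defines the pathway. The ISRE core searched was GAAA, any 2 bases and GAAA again (TTTC, any 2 bases and TTTC where it lies on the other strand), in 250 bases before and 50 bases after each annotated start. The table held a promoter for 27 of the 37 genes, and 11 of these had a match, against 3.99% of 27025 genes with a promoter. A match was found in 6 of the 10 genes with a promoter that rose and in 5 of the 17 others. The interferon gamma element core TTCNNNGAA, which reads the same on both strands, was found in 9 of the 27 genes, against 9.55% of all genes. In Bst2 a match to it overlaps the ISRE core. These matches describe letters in a window and were not tested as binding sites. The 250 bases before the start are shown for Oas1a and Ifit1, the largest rises, and for Bst2, in each of which copies of the core lie close together. Bases run 5′ to 3′ along the gene, and capitals mark the ISRE core matches.
Oas1a, chr5:120907526-120907775, minus strand: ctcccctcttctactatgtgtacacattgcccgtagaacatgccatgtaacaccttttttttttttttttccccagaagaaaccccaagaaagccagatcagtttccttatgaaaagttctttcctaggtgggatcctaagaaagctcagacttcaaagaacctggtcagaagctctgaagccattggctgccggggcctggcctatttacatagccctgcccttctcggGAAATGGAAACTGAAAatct
Ifit1, chr19:34640639-34640888, plus strand: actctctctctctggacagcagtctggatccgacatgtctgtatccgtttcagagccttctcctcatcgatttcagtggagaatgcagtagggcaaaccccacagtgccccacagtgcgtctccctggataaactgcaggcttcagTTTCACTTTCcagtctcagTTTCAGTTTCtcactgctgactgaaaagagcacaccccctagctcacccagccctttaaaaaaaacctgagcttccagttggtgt
Bst2, chr8:71537473-71537722, minus strand: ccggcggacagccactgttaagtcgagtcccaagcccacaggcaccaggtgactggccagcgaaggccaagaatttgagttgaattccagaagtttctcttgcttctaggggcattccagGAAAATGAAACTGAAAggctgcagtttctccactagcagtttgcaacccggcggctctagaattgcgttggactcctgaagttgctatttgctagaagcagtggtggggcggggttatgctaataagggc

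In Oas1a the core occurs in overlapping copies from base -20 to base -5 before the start used. In Bst2 it likewise lies from -130 to -115, and in Ifit1 the copies begin at -104 and -85. The annotated Oas1a gene extends past that start to chr5:120907544, so its copies lie almost wholly inside the gene. Ifit3, which did not pass the test, carries the same core letters as Ifit1, beginning at -156 and -122. The cores of Ifih1, Ddx58 and Eif2ak2 lie after the annotated start, and Trim30a has a second annotated start with the same core. The cores are shown with their flanks to allow comparison, first those that rose (Eif2ak2, Ifih1 and Trim30a) and then those that did not pass (Oas3, Stat2, Rsad2, Ddx58 and Ifit3).
Eif2ak2, core at chr17:78882545-78882554, minus strand: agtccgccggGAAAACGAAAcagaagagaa
Ifih1, core at chr2:62646214-62646223, minus strand: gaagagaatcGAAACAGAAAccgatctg
Trim30a, core at chr7:104465220-104465229, minus strand: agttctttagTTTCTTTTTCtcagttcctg
Oas3, core at chr5:120777725-120777734, minus strand: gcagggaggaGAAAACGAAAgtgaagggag
Stat2, core at chr10:128270276-128270285, plus strand: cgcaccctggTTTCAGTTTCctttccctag
Rsad2, core at chr12:26456563-26456572, minus strand: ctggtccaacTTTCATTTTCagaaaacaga
Ddx58, core at chr4:40239814-40239823, minus strand: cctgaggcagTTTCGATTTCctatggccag
Ifit3, core at chr19:34583373-34583382, plus strand: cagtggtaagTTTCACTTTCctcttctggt
Ifit3, core at chr19:34583407-34583416, plus strand: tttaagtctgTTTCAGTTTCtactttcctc

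The receptor genes did not pass the test. Ifnar1 encodes the receptor subunit that binds TYK2. Its log2 values relative to the median were 0.15, -0.17, 0.05, 0.39 and 0.09 in immunized replicates 1 to 5, against -0.07, -0.11 and -0.11 in naive replicates 1 to 3. The groups overlapped through immunized replicate 2, and the difference was 0.20 ± 0.12 (SE, here and below, for 5 immunized against 3 naive samples; adjusted p = 0.28 in limma). Ifnar2 encodes the subunit that binds JAK1 and STAT2, and had 0.25, -0.35, 0.39, 0.15 and 0.35 in immunized samples, against -0.11, -0.59 and -0.70 in naive samples. The lowest immunized and the highest naive sample were again replicate 2 and replicate 1 of their groups, and the difference of 0.62 ± 0.19 did not pass (adjusted p = 0.0706). It passed without immunized replicate 2, with an adjusted p of 0.0145, and over the fits that left out 1 sample the adjusted p reached 0.18.

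None of the 4 transcription factors of the response passed in limma's test over all genes (2 higher, unadjusted). Irf7, the amplifier of interferon genes and itself an interferon target, had 0.37, -0.05, 0.32, 0.73 and -0.09 in immunized samples, against 0.05, -0.72 and -0.64 in naive samples. Naive replicate 1 lay among the immunized values, and the difference was 0.69 ± 0.23 (adjusted p = 0.0823). Irf9, the DNA-binding subunit of the ISRE complex, had 0.24, -0.04, 0.46, -0.01 and 0.08 in immunized samples, against 0.01, -0.68 and -0.49 in naive samples. Its overlap was again with naive replicate 1 alone (0.54 ± 0.17, adjusted p = 0.0747). Stat2, the other specific subunit of that complex, had 0.21, 0.16, 0.23, 0.21 and -0.45 in immunized samples, against -0.41, -0.07 and -0.29 in naive samples. Immunized replicate 5 lay below all naive samples in Stat2, while the other immunized samples lay close together above them (0.33 ± 0.17, adjusted p = 0.209). Irf1, a factor induced mainly by interferon gamma, differed by 0.01 ± 0.14 (adjusted p = 0.973), with a 95% confidence interval from -0.32 to 0.34.

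Among 5 sensors of viral RNA and DNA, 3 rose. Eif2ak2, the RNA-activated kinase PKR that stops translation, had 0.53, 0.07, 0.55, 0.25 and -0.07 in immunized samples, against -1.10, -0.68 and -0.57 in naive samples. The groups lay apart and the difference was 1.05 ± 0.18, or 2.07-fold (adjusted p = 0.0191). Its 3 probe sets differed by 1.68, 0.95 and 0.52. Ifih1 (MDA5), a helicase that senses long viral RNA, had 0.45, -0.11, 0.40, 0.58 and 0.11 in immunized samples, against -0.19, -0.38 and -0.60 in naive samples (0.67 ± 0.17, adjusted p = 0.0413). Its gap between the groups was narrow, with immunized replicate 2 just above naive replicate 1. Zbp1, a sensor of Z-form nucleic acid that can trigger cell death, had 0.47, 0.14, 0.09, 0.55 and -0.06 in immunized samples, against -0.29, -0.39 and -0.29 in naive samples (0.56 ± 0.14, adjusted p = 0.0454). The helicases Ddx58 (RIG-I), at 0.21 ± 0.10, and Dhx58 (LGP2), at 0.20 ± 0.10, did not pass (adjusted p = 0.193 and 0.198). The probe sets of Dhx58 disagreed, with differences of 0.54, 0.10 and -0.03. When probe sets were tested singly in limma, neither of those of Zbp1 passed (adjusted p = 0.056 and 0.0878).

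The OAS family had the largest median difference of the 7 role groups (1.13), and 3 of its 5 genes rose. OAS enzymes make an oligoadenylate that activates an RNA-degrading nuclease. Oas1a had 0.56, -0.10, 0.57, 0.88 and 0.10 in immunized samples, against -0.53, -1.50 and -1.44 in naive samples. All immunized samples lay above naive replicate 1, which itself lay far above the other naive samples, and the difference was 1.56 ± 0.28, or 2.95-fold (adjusted p = 0.0211). Oas2 had 0.32, -0.11, 0.44, 0.50 and 0.11 in immunized samples, against -0.36, -1.24 and -1.04 in naive samples, with the same order of samples (1.13 ± 0.21, adjusted p = 0.0233). Oasl1, which in mice restrains translation of Irf7, had 0.54, -0.18, 0.28, 0.52 and 0.18 in immunized samples, against -0.20, -1.15 and -0.85 in naive samples. Its lowest immunized and highest naive sample almost met (1.00 ± 0.23, adjusted p = 0.0355). Oas3 did not pass with all samples (0.94 ± 0.30, adjusted p = 0.0777), and naive replicate 1 at 0.04 lay within its immunized range of -0.22 to 0.68. Without naive replicate 1 Oas3 passed, with an adjusted p of 0.0351 and a difference of 1.36, and over the fits without 1 sample the adjusted p reached 0.221. Oasl2 was the only member whose groups lay apart without passing (1.15 ± 0.35, adjusted p = 0.0683), and its immunized values were spread widely, from -0.10 to 1.46.

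Of 10 antiviral effectors, 5 rose. Ifit1, which binds viral RNA lacking a host cap and blocks its translation, had 0.91, 0.16, 0.36, 1.06 and -0.16 in immunized samples, against -0.46, -1.38 and -1.002 in naive samples (1.42 ± 0.30, 2.67-fold, adjusted p = 0.0304). Its relatives Ifit2 (0.16 ± 0.11, adjusted p = 0.35) and Ifit3 (0.33 ± 0.30, adjusted p = 0.488) did not pass, although the genes lie together on chromosome 19. Ifit3 had 0.55, 0.37, 0.00, 0.75 and -0.78 in immunized samples, against 0.00, -0.27 and -0.20 in naive samples. Immunized replicate 5 had the lowest Ifit3 value of all samples, while immunized replicates 1 and 4 had the highest values of both Ifit1 and Ifit3. The difference between the Ifit1 and Ifit3 values was not tested, and probe sets of the Ifit, Oas and Trim30 families can bind transcripts of related genes.

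Bst2, or tetherin, holds budding virus at the cell surface and also marks plasmacytoid dendritic cells. It had 0.43, 0.22, 0.13, 0.65 and -0.13 in immunized samples, against -0.43, -0.58 and -0.73 in naive samples (0.84 ± 0.17, adjusted p = 0.0261). The groups lay apart, and immunized replicate 5 was nearest to the naive samples. Samd9l, an interferon target that restricts poxviruses, had 0.21, -0.12, 0.55, 0.12 and 0.41 in immunized samples, against -0.30, -0.64 and -0.79 in naive samples (0.81 ± 0.17, adjusted p = 0.0277). Cmpk2, a mitochondrial nucleotide kinase, rose by 0.77 ± 0.18 (adjusted p = 0.0376), with 1 of its 2 probe sets passing singly. Rsad2, or viperin, the neighbour of Cmpk2 on chromosome 12, had a difference of 0.73 ± 0.27 that missed the threshold (adjusted p = 0.11). In both genes immunized replicate 3 was the highest sample (0.79 in Cmpk2 and 0.92 in Rsad2) and naive replicate 2 the lowest (-0.54 and -0.99).

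Mx1 and Mx2 encode dynamin-like GTPases that block influenza and other viruses, and inbred mouse strains such as BALB/c carry alleles that give no functional protein. Mx1 RNA had 0.55, 0.06, -0.03, 0.65 and 0.03 in immunized samples, against -0.35, -0.37 and -0.54 in naive samples (0.67 ± 0.17, adjusted p = 0.0457). Here naive replicate 1 did not stand apart from naive replicate 2. When probe sets were tested singly in limma, that of Mx1 did not pass (adjusted p = 0.052). Mx2 differed by 0.04 ± 0.08 (adjusted p = 0.795), with a 95% interval from -0.15 to 0.23. Isg20, an RNA exonuclease, differed by 0.14 ± 0.23 (adjusted p = 0.714), and its values ran from -0.43 to 0.60 in immunized samples and from -0.33 to 0.29 in naive samples.

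**Figure D3:**
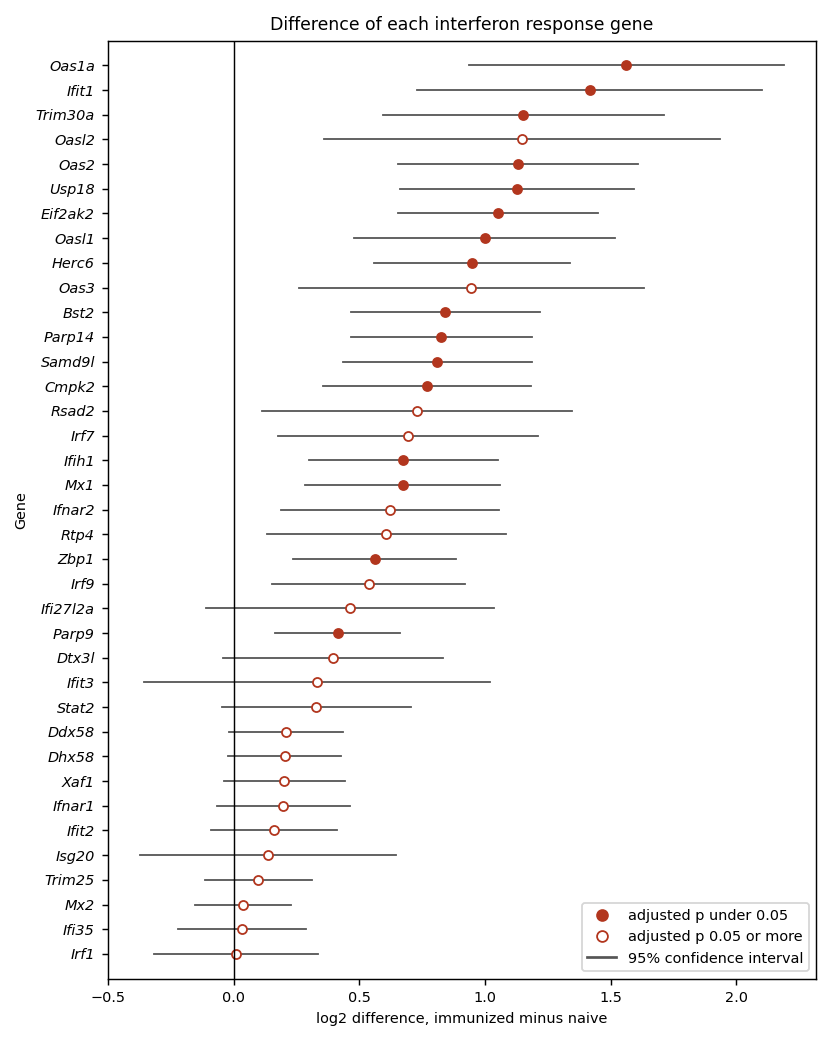
Difference of each of the 37 genes (y axis, ordered by size), immunized minus naive, in log2 units (x axis), with its 95% confidence interval from limma. Filled points mark the 16 genes with an adjusted p under 0.05. The points run from 0.01 for Irf1 to 1.56 for Oas1a.

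In the role group of ISG15, ubiquitin and related ADP-ribosylation genes, 5 of 7 measured genes rose: Usp18, Herc6, Trim30a, Parp14 and Parp9. ISG15 is a ubiquitin-like protein that HERC6 attaches to targets in mice and USP18 removes. Usp18, which also blocks signalling at IFNAR2, had 0.60, -0.13, 0.42, 0.57 and 0.13 in immunized samples, against -0.41, -1.09 and -0.93 in naive samples (1.13 ± 0.20, 2.18-fold, adjusted p = 0.0223). The groups lay apart, and as in Oas1a the nearest samples were immunized replicate 2 and naive replicate 1. Herc6 had 0.41, 0.09, 0.66, 0.20 and -0.11 in immunized samples, against -0.92, -0.65 and -0.52 in naive samples (0.95 ± 0.17, adjusted p = 0.0222). Naive replicate 1, the highest naive sample in Usp18, was the lowest in Herc6, in each of its 4 probe sets. The Herc6 probe sets differed by 0.435 to 1.317, and 3 passed singly. Trim30a, a ubiquitin ligase that restrains toll-like receptor signalling, had 0.20, -0.53, 0.30, 0.41 and 0.26 in immunized samples, against -0.55, -1.42 and -1.11 in naive samples (1.15 ± 0.25, adjusted p = 0.0304). Immunized replicate 2 lay far below the other immunized samples and just above naive replicate 1. The probe sets of Trim30a differed by 1.58 and 0.73, and only the first passed singly. Trim25, the ligase that activates RIG-I, differed by 0.10 ± 0.09 (adjusted p = 0.508).

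PARP9 and DTX3L form a complex of an ADP-ribosyltransferase and a ubiquitin ligase, and PARP14 is a related ADP-ribosyltransferase. The genes lie together on chromosome 16. Parp14 had 0.36, -0.04, 0.26, 0.56 and 0.04 in immunized samples, against -0.31, -0.66 and -0.80 in naive samples (0.83 ± 0.16, adjusted p = 0.0253), and both of its probe sets passed singly. Parp9 rose by 0.41 ± 0.11, just inside the threshold (adjusted p = 0.0495). Its probe set did not pass when probe sets were tested singly in limma (adjusted p = 0.0609). Dtx3l at 0.39 ± 0.19 did not pass (adjusted p = 0.198), and naive replicate 1 (0.13) exceeded 4 of the 5 immunized samples.

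None of the 4 other interferon-stimulated genes passed in limma (1 higher, unadjusted). Rtp4, which encodes a chaperone of membrane receptors, differed by 0.61 ± 0.21 (adjusted p = 0.0931), and its probe sets disagreed, with differences of 1.14 and 0.07. The first of these passed when probe sets were tested singly. Ifi27l2a, a small mitochondrial protein, had 0.17, 0.64, 0.28, 0.35 and -0.68 in immunized samples, against -0.17, -0.38 and -0.39 in naive samples. Immunized replicate 5 lay below all naive samples (0.46 ± 0.25, adjusted p = 0.243), as in Stat2, Ifit2, Ifit3, Mx2 and Trim25. Xaf1, a partner of the apoptosis inhibitor XIAP, differed by 0.20 ± 0.11 (adjusted p = 0.23), and Ifi35 by 0.03 ± 0.11 (adjusted p = 0.869).

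The interferon genes themselves did not rise. Of 9 type I interferon genes measured, 0 rose and 0 fell in limma, with a median difference of -0.21. Unadjusted, against 12.9% higher and 18.2% lower over all genes, 0 of these 9 were higher and 3 lower. Their 9 probe sets were dim: in 4 the lowest array lay below 4 on the log2 scale, a class that held none of the 63 probe sets of the members, and in 5 between 4 and 8. Ifnb1 had -0.18, 0.01, 0.07, -0.13 and -0.46 in immunized samples, against 0.48, 0.23 and -0.01 in naive samples (-0.37 ± 0.15, adjusted p = 0.125). Ifna1 differed by -0.55 ± 0.16 (adjusted p = 0.065) and Ifna5 by -0.42 ± 0.13 (adjusted p = 0.0745). At this signal a low interferon level cannot be told from none. Ifng, the type II interferon, differed by -0.11 ± 0.08 (adjusted p = 0.395).

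Signalling and sensing genes upstream of the members were higher in part. Of 17 further genes of interferon receptors and signalling, 4 rose and 0 fell: the interferon gamma receptor Ifngr1 (0.64 ± 0.12), the shared receptor subunit Il10rb (0.64 ± 0.15), the kinase Jak1 (0.40 ± 0.10) and the phosphatase Ptpn6 (0.91 ± 0.23). Of 16 genes of nucleic acid sensing, 5 rose and 0 fell, against 4.46% and 4.68% of all genes. These were the RNA-sensing receptors Tlr7 (0.62 ± 0.09) and Tlr8 (0.90 ± 0.17), the DNA sensor Cgas (0.57 ± 0.14), its adaptor Sting1 (0.78 ± 0.20) and the adaptor Tank (0.99 ± 0.14). Tlr7 had 0.22, -0.09, 0.14, 0.20 and 0.20 in immunized samples, against -0.52, -0.52 and -0.42 in naive samples, so that naive replicate 1 did not stand apart. Irf8, a factor of myeloid and dendritic cells, differed by 0.37 ± 0.29 (adjusted p = 0.413).

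Of 46 further interferon-stimulated genes, 13 rose and 0 fell (22 higher and 0 lower, unadjusted), a median difference of 0.27. By the size of the moderated t, the first were Ifit1bl1, a relative of Ifit1 (1.69 ± 0.18, adjusted p = 0.00793), the helicase Ddx60 (1.37 ± 0.17, adjusted p = 0.00903), the membrane protein Ms4a4c (2.12 ± 0.28, adjusted p = 0.01) and Ifi44l (1.11 ± 0.16, adjusted p = 0.012). In Ifi44l the naive samples lay close together, at -0.82, -0.94 and -0.80, against 0.36, -0.15, 0.36, 0.61 and 0.12 in immunized samples. The chemokine Ccl12 (1.65 ± 0.31) and the nuclear body protein Sp100 (0.90 ± 0.20) followed. Of 12 genes of interferon gamma and its targets, the GTPase Gbp3 rose (0.95 ± 0.17, adjusted p = 0.0208) and 0 fell. Before adjustment 4 were higher and 1 lower. Over all genes 4.46% rose and 4.68% fell, and before adjustment 12.9% were higher and 18.2% lower.

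Markers of some leukocytes passed the test as higher in immunized discs, and in other lists no marker passed. Of 13 macrophage markers, 7 rose and 0 fell (10 higher, unadjusted). Their mean ran from -0.01 to 0.57 in immunized samples and from -0.80 to -0.43 in naive samples. Of 9 neutrophil markers, 3 rose and 0 fell (8 higher, unadjusted). Their mean ran from -0.13 to 0.60 in immunized samples and from -0.67 to -0.09 in naive samples. Macrophage means were highest in immunized replicates 1 and 4 (0.57 and 0.55), as was the mean of the members. Conventional dendritic cell means (0.29 and 0.25) and endothelium means (0.15 and 0.54) were also highest in those 2 samples. So were the means of interferon gamma and its targets (0.30 and 0.23). Of the 7 endothelium markers 0 passed in limma (2 higher, unadjusted). Neutrophil means were highest in immunized replicates 3 and 5. Of 9 plasma cell markers 3 rose (5 higher, unadjusted). Their mean ran from 0.09 to 0.18 in immunized samples and from -0.68 to -0.21 in naive samples. In limma 0 of 9 plasmacytoid dendritic cell markers passed (1 higher, unadjusted), with a mean from -0.10 to 0.20 in immunized samples and from -0.09 to 0.28 in naive samples, and their defining surface marker Siglech differed by -0.02 ± 0.15. Among the other leukocyte lists, 1 of 8 T cell markers rose (2 higher, unadjusted). In limma 0 of 7 conventional dendritic cell, 0 of 6 NK cell and 0 of 7 B cell markers passed (2, 2 and 0 higher, unadjusted). Over all genes 4.46% rose and 4.68% fell, and 12.9% were higher and 18.2% lower, unadjusted. B cell markers had a median difference of -0.17, with 3 lower before adjustment. The median difference was 0.34 for NK cell markers and 0.11 for conventional dendritic cell markers. The part of these cells in the members' differences was not tested.

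Markers of disc cells and of marrow also differed among samples. Of 12 cartilage and nucleus pulposus markers, 5 fell and 0 rose, with a mean from -0.82 to 0.32 in immunized samples and from 0.42 to 0.71 in naive samples. The lowest array was at 8 or more (log2) in 20 of the 22 probe sets of these markers, and for bone and skeletal muscle markers in 10 of 11 and 8 of 9, against 36% of all probe sets. The tissue makeup of the samples was not tested. Immunized replicate 2, which was low in the members, had the highest cartilage mean of its group (0.32). Immunized replicate 5, also low in the members, had a cartilage mean of -0.63. Erythroid markers had their highest means in immunized replicate 3 (0.93) and naive replicate 1 (0.34). Immunized replicates 1 and 5 followed (0.245 and 0.242). Megakaryocyte means were highest in immunized replicates 3 and 5 (0.96 and 0.73) and in naive replicate 1 (0.38), against -0.32 and -0.26 in the other naive samples. A further fit left out the 3 samples with the highest megakaryocyte means, chosen once their marker values were known, and kept immunized replicate 1. Its only naive samples were replicates 2 and 3. The samples left out included naive replicate 1, the highest naive sample in 34 members, and immunized replicate 5, the lowest immunized sample in 15. Leaving those out widens the difference in these members (median over all members 0.77, against 0.62 with all samples). The fit is therefore no test of a part of marrow. In that fit 7 members were higher and 0 lower in limma (31 higher, unadjusted): Oas1a, Oas2, Oas3, Ifit1, Bst2, Samd9l and Herc6. Over all genes that fit passed 173 higher and 45 lower (1935 and 2107, unadjusted). Naive replicate 1 also had the lowest skeletal muscle mean of all samples (-0.65, against 0.23 and 0.06 in naive replicates 2 and 3). Its B cell and plasmacytoid dendritic cell means were the highest of all samples (0.39 and 0.28). Over all probe sets its median absolute difference from naive replicates 2 and 3 was 0.22 and 0.23 (log2), against 0.12 between those. The part of marrow, muscle or other tissue in the difference between naive replicate 1 and the other naive samples was not tested.

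**Figure D4:**
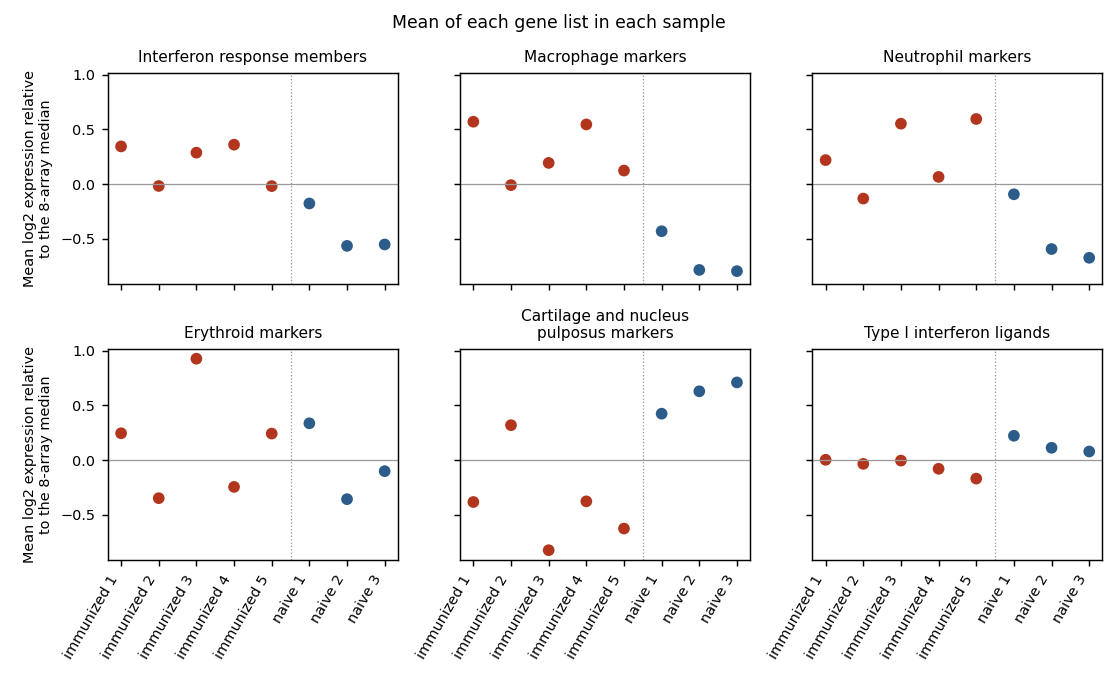
Mean log2 expression relative to the 8-array median (y axis) of the 37 interferon response genes and of 5 other gene lists in each sample (x axis, 5 immunized samples left of the dotted line, 3 naive samples right of it). Each point is 1 sample. The means of the members and of the macrophage markers lie apart between the groups, while the neutrophil and erythroid means overlap. The cartilage and interferon ligand means are lower in all immunized samples than in all naive samples.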

How the data were processed

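Total RNA of pooled discs was labelled with biotin and hybridized to Affymetrix arrays. The authors deposited log2 expression values that the submitters' processing notes credit to RMA (robust multi-array averaging); its version and software are not given in the sources used here. The deposited values also have each of the 45101 probe sets centred on its median over the 8 arrays (0 to within 5.0e-07), a step the labels do not record. Differences between groups are unaffected, absolute levels are lost, and a coarse level of the lowest array was read from the spacing of the printed numbers. The number of arrays limits the precision.

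Probe sets were named through the platform annotation (34958 named a single gene, 932 several and 9211 none). Symbols were looked up by gene identifier in RefSeq GRCm38.p6, which changed 0 symbols, while 162 had no match. The 64 control probe sets were left out. A gene was the mean of all probe sets naming it alone. Immunized and naive samples were compared over all 18193 genes by two-sided tests with lmFit and eBayes of limma 3.58.1 under R 4.3.3, without covariates, with p-values adjusted by Benjamini-Hochberg and a threshold of 0.05, and the fit was tested on simulated data. Replicates are biological per the titles; the sources used here give no scan date or batch.

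The members and gene lists were chosen with earlier results of these data known. Per-sample values are given for members that passed, for receptor and transcription factor genes and for others singled out after their values were seen. Of each other pathway list, up to 6 genes that passed are named by moderated t, or 2 where none passed, besides Ifnb1, Ifng and Irf8. The alternatives listed in the closing section were other normalizations, probe set choices, variance models, thresholds and sample sets.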

Additional observations from a re-analysis of the deposited data

Results flagged for a closer look

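Among 58 genes tested for an immunized sample far from the other 4, 5 showed one; in groups of 5, chance gives such a sample in about 1 of 20 genes. Immunized replicate 5 was far below the others in Stat2 (-0.446) and far above them in Ifna5 (0.214). Immunized replicate 2 was far below the others in Trim30a (-0.533), Tlr7 (-0.092) and Ms4a4c (-0.519). In Trim30a, Tlr7 and Ms4a4c the immunized samples still lay above all naive samples. These genes were measured on the same arrays and are not independent of each other.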

How the results depend on the processing

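Of the 16 members that rose, 15 or 16 remained with arrays centred on their medians, without probe sets marked _x_at or _s_at, without dim probe sets and with a trended, robust variance. With probe sets tested singly 14 members passed, 13 of them among the 16. Quantile normalization gave 10 members, and over all genes 591 higher and 355 lower, against 812 and 851. Array weights gave 27 members (2495 higher and 3405 lower over all genes). Without both samples whose descriptions join sample numbers, limma passed 0 members and 0 genes in either direction (16 members, 1621 genes higher and 2173 lower, unadjusted). An adjusted p under 0.01 left 0 members (41 and 13 genes), and one under 0.1 gave 22 (1631 and 2152). Leaving out 1 sample gave 0 to 17 members, 17 to 1293 genes higher and 4 to 1710 lower. Without naive replicate 1 and immunized replicates 3 and 5, chosen after the data were seen, 7 members, 173 genes higher and 45 lower passed. No setting called a member lower, and the median member difference ran from 0.52 to 0.81.

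Deviations of same-numbered samples from their group means correlated at -0.047, 0.243 and -0.101. Those of differently numbered samples ran from -0.378 to 0.331. The values gave no sign of pairing by number but cannot exclude it. With the number as a replicate block limma passed 0 members (26 higher, unadjusted), 6 genes higher and 1 lower. Immunized samples whose number no naive sample shares added nothing to the differences in that fit. Its differences rest on the 3 naive samples and the immunized samples of the same numbers, not on all samples. The Irf1 difference, 0.009 with all samples, was -0.032 with the replicate block, -0.171 without both joined samples, and -0.157 to 0.198 with 1 sample left out. In the fit without 3 samples it was 0.216. The Ifi35 difference, 0.032, was -0.079 without both joined samples, -0.055 to 0.17 with 1 sample left out and 0.209 without 3. The causes of these changes were not tested. With 3 naive samples, of which 1 stood apart, single samples decided which members passed, and centred values gave no level above background.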
